A study of Mus musculus with 6 samples.

Results

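C1qa, C1qb and C1qc encode the A, B and C chains of complement C1q. The genes were taken by their symbols from the 3 deposited matrices of a mouse liver single-cell RNA-seq study. All 3 were present in each matrix, as 3 of 4486 genes in adjacent liver, 3 of 2669 in micrometastasis and 3 of 2643 in macrometastasis. The matrices share 1642 genes. Immune cells were sorted by the pan-leukocyte marker CD45 from a piece of liver of Balb/c mice that carried metastases of 4T07, a mouse mammary carcinoma line, after intracardiac injection. The tumour cells expressed either a scrambled shRNA (Ctrl) or an shRNA against Tim3 (Tim3-KD), so the knockdown was in the injected line and not in the sorted cells, and these libraries hold no check of it. Livers were taken on day 3, as a sample without tumour (adjacent) and a micrometastasis sample, and on day 12 as a macrometastasis sample. Each of the 6 combinations of site and tumour line is 1 library made from a pair of pooled mice. There are no replicate libraries. Site and day differ together between micrometastasis and macrometastasis and cannot be told apart. Intervals below are 95% exact intervals that cover counting error only, and no p-value is given.

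C1q is the recognition unit of the classical complement pathway. The A, B and C chains assemble into heterotrimers, and these into the hexameric molecule that binds antibody complexes and dying cells. Binding activates the C1r and C1s proteases, which cleave C4 and C2. Most C1q in the body is made by tissue macrophages and immature dendritic cells, and in the liver Kupffer cells, the resident macrophages that express Clec4f, are a main source. All chains are needed together for secretion.

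The genes are adjacent on chromosome 4 and are all transcribed from the minus strand (GRCm38). C1qb spans chr4:136880129-136886187, C1qc chr4:136889804-136893065 and C1qa chr4:136895917-136898803. Together they cover 18675 bases, with 3616 bases between C1qb and C1qc, 2851 bases between C1qc and C1qa, and no other annotated gene between or over them. C1qa and C1qb each have 1 annotated transcript of 3 exons, while C1qc has 2 transcripts of 2 to 3 exons. The promoter windows of C1qb and C1qc are shown because the levels of the C1q genes rose and fell together across cell classes, and C1qa is named only. They run from 250 bases before to 50 bases after the RefSeq start (GRCm38.p6, minus strand, chr4:136886151-136886450 for C1qb and chr4:136892865-136893164 for C1qc). Capitals mark the match to GAGGAA, the core recognised by PU.1, the myeloid ETS factor, on either strand.

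C1qb promoter: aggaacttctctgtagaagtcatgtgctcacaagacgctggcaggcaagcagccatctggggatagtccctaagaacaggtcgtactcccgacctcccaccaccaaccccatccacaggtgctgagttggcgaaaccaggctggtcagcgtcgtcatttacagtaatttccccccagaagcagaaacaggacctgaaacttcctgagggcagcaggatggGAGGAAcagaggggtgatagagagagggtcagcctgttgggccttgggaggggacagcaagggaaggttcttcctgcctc

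C1qc promoter: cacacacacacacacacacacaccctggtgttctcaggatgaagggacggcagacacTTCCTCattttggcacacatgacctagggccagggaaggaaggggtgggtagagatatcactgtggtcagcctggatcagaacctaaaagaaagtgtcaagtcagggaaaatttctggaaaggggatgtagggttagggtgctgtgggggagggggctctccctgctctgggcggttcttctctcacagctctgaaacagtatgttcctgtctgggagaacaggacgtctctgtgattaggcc

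The C1qb window held 1 such match, on the strand of the gene, starting 30 bases before the start. The C1qc window held 1 match on the other strand, starting 193 bases before the start. The C1qc gene given above begins at base 136893065, which lies inside this window. The distance therefore holds for the RefSeq start only. Of 32851 RefSeq promoter windows, 28.3% held GAGGAA, so a match is common. The MAF core TGCTGAC (4.67% of windows) and the paired interferon regulatory factor motif (IRF pair, 3.44%) were also searched on both strands. Neither window held a match to them.

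The deposited values are scaled scores, from which the unique molecular identifiers (UMIs) of each gene in each cell were recovered. The libraries held from 542 to 5502 cells and 23008 cells in all, with median depths of 6300 to 10248 UMIs per cell. The adjacent libraries were the smallest, with 1803 cells in Ctrl and 542 in Tim3-KD. Cells were clustered without the C1q genes and clusters were named from marker genes. The Kupffer-like cells (cluster 0 with 2030 cells and cluster 22 with 375) carried Clec4f, Cd5l, Vsig4, Fcna and Folr2 among their markers. The share of Kupffer-like cells in the library differed widely, at 1.72% in adjacent Ctrl, 19.4% in adjacent Tim3-KD, 5.37% in micrometastasis Ctrl, 4.98% in micrometastasis Tim3-KD, 16.4% in macrometastasis Ctrl and 17.0% in macrometastasis Tim3-KD. A second class, called lesion macrophage-like (cluster 14), was led by markers such as Trem2 and Spp1, and 454 of its 628 cells came from micrometastasis Ctrl. In its C1q-high cells (10 or more C1q UMIs) Spp1 stood at 308 CPM with Ctrl and 454 with Tim3-KD in micrometastasis, but at 0 and 31.7 in macrometastasis, where Trem2 stood at 316 and 241. In its cells with no C1q UMI in macrometastasis (25 with Ctrl, 26 with Tim3-KD), Trem2 stood at 39.8 and 66.1 and Spp1 at 86.9 and 29.7. In such cells of micrometastasis Trem2 stood at 238 and 213 and Spp1 at 526 and 499.6. These markers thus bear out the name only in part in macrometastasis. Cluster 19 was led by Pf4, Thbs1, Ctsl, Cxcl1 and Alb. It stayed unnamed because its 10 leading genes held 1 marker each of the monocyte (Fn1), hepatocyte (Alb) and platelet (Pf4) lists. Between 0 and 11 cell barcodes were shared by any pair of libraries.

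C1q was concentrated in the Kupffer-like cells in all 6 libraries. These cells held 95.8% of all C1q UMIs in adjacent Ctrl, 98.3% in adjacent Tim3-KD, 82.9% in micrometastasis Ctrl, 78.4% in micrometastasis Tim3-KD, 87.4% in macrometastasis Ctrl and 90.7% in macrometastasis Tim3-KD. Summed over the 3 genes, the Kupffer-like level was 17629 UMIs of C1q per 1000000 UMIs (CPM) in adjacent Ctrl (17207 to 18058, 31 cells) and 14974 in adjacent Tim3-KD (14781 to 15168, 105 cells). It was 18592 in micrometastasis Ctrl (18423 to 18763, 274 cells) and 17163 in micrometastasis Tim3-KD (16994 to 17333, 256 cells). In macrometastasis it was 15835 in Ctrl (15746 to 15924, 804 cells) and 19832 in Tim3-KD (19747 to 19918, 935 cells). The highest of these levels, in macrometastasis Tim3-KD, was 1.32 times the lowest, in adjacent Tim3-KD, and C1q made up between 1 and 2 of every 100 UMIs of these cells.

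**Figure D1:**
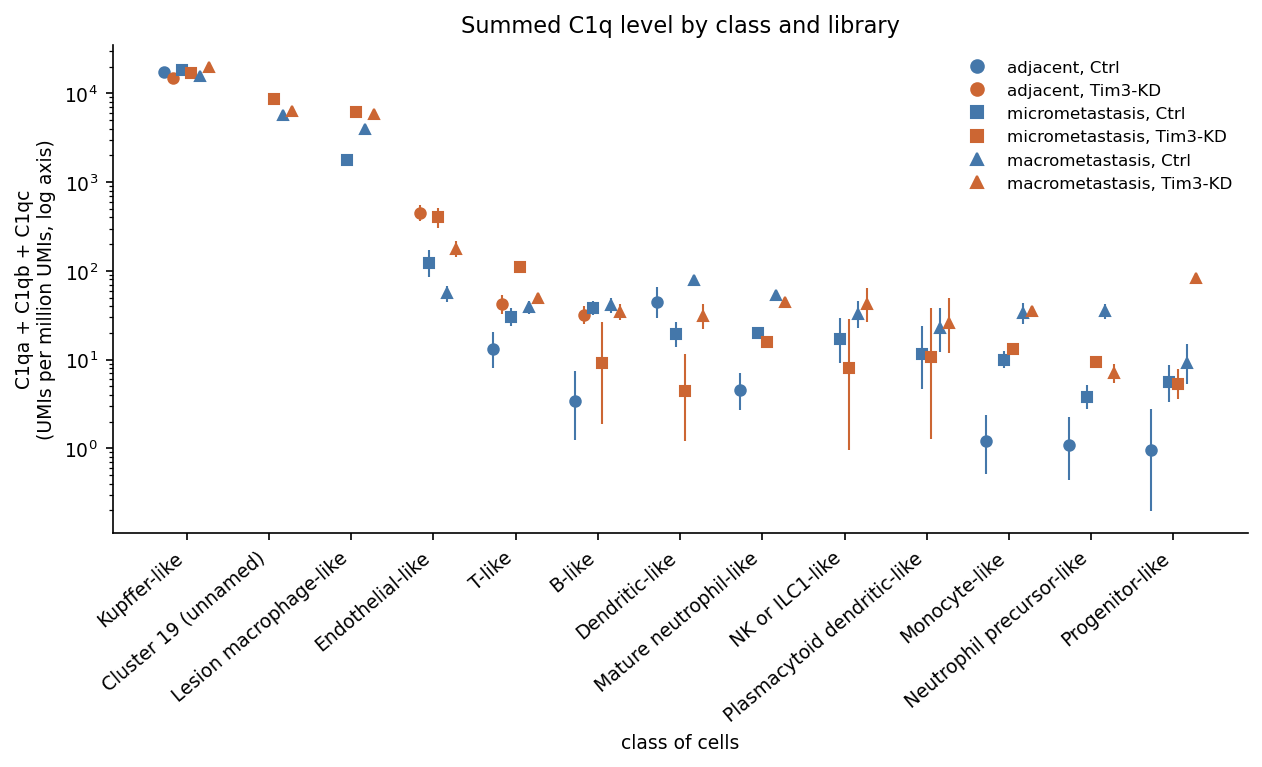
Summed C1qa, C1qb and C1qc CPM (log axis) in each named class of cells, with 1 point per library and bars for 95% counting intervals; classes with under 20 cells in a library and values of 0 are not drawn. Kupffer-like cells sit between 14974 and 19832 in the 6 libraries, lesion macrophage-like cells lie below them, and lymphocyte- and neutrophil-like cells lie mostly under 100.

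The A chain gene, C1qa, stood at 7703 CPM in Kupffer-like cells of adjacent Ctrl, 6726 of adjacent Tim3-KD, 8253 of micrometastasis Ctrl, 7749 of micrometastasis Tim3-KD, 7122 of macrometastasis Ctrl and 9020.1 of macrometastasis Tim3-KD. The B chain gene, C1qb, stood at 5429.6, 4295, 6184, 5488, 5255 and 6523 CPM in the same order of libraries. The C chain gene, C1qc, stood at 4496, 3953, 4156, 3925, 3458 and 4289 CPM. The libraries that were highest and lowest were not the same for each gene. C1qa and C1qb were lowest in adjacent Tim3-KD, while C1qc was lowest in macrometastasis Ctrl and highest in adjacent Ctrl. These are counts of 3′ ends and were not scaled to length, so levels are compared between libraries and not between genes.

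Every Kupffer-like cell held at least 1 C1q UMI, also after each cell was thinned to 1500 UMIs. The median cell held from 148 to 195 C1q UMIs per 10000 UMIs across libraries. Of all Kupffer-like cells, 93.7% lay between 100 and 300 C1q UMIs per 10000, and 4.24% lay between 30 and 100. The shape of the distribution within the range of 100 to 300 was not measured. The level did not follow depth closely, with a Spearman rho between the C1q level and the UMI total from −0.09 in adjacent Tim3-KD to 0.18 in micrometastasis Tim3-KD. Cell by cell, C1qa followed C1qb with a rho of 0.58 (105 cells, adjacent Tim3-KD) to 0.79 (31 cells, adjacent Ctrl). The rho of C1qa with C1qc was 0.48 to 0.60, and that of C1qb with C1qc 0.40 to 0.52. These are descriptions over cells of a library, which share its depth and handling.

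The lesion macrophage-like class was mixed. Of its 628 cells, 61.1% held no C1q UMI, while 11.8% lay between 100 and 300 UMIs per 10000, the range that held most Kupffer-like cells. In micrometastasis Ctrl, 78 of 454 cells (17.2%) had 10 or more C1q UMIs and carried 98.2% of the C1q of the class. In micrometastasis Tim3-KD, 26 of 54 cells (48.1%) did so and carried 98.8%. A UMI of a Kupffer marker was present in 23.1% of these C1q-high cells in Ctrl and 30.8% in Tim3-KD, against 7.84% and 5.26% of the cells of the class with no C1q UMI. Their Clec4f level was 27.7 CPM for Tim3-KD and 29.8 for Ctrl. In macrometastasis, 58.8% of the 17 C1q-high cells in Ctrl and 48.3% of the 29 in Tim3-KD had a Kupffer marker UMI, and Clec4f stood at 241 and 117 CPM. Of the cells of the class with no C1q UMI there, 20% in Ctrl and 23.1% in Tim3-KD had a Kupffer marker UMI.

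Cluster 19 was mixed in a similar way. It held 487 cells, of which 96 came from micrometastasis Tim3-KD, 186 from macrometastasis Ctrl and 197 from macrometastasis Tim3-KD, against 1 in adjacent Ctrl, 7 in micrometastasis Ctrl and 0 in adjacent Tim3-KD. Its summed C1q level was 8591 CPM in micrometastasis Tim3-KD (8392 to 8794), 5727 in macrometastasis Ctrl (5633 to 5821) and 6307 in macrometastasis Tim3-KD (6207 to 6408). Over all libraries, 31.6% of its cells had no C1q UMI and 29.4% lay between 100 and 300 per 10000. Clec4f UMIs per 100 C1q UMIs were 0.0142 (1 UMI) in micrometastasis Tim3-KD, 8.66 in macrometastasis Ctrl and 4.14 in macrometastasis Tim3-KD, against 27.9, 39.1 and 37.2 in Kupffer-like cells of these libraries. Other Kupffer genes were present in the cluster. In micrometastasis Tim3-KD the values per 100 C1q UMIs were 3.71 for Cd5l, 3.95 for Fcna, 1.02 for Vsig4 and 1.34 for Marco, and 64.6% of its cells had a Kupffer marker UMI. In macrometastasis Ctrl, Marco was at 1.17 against 1.30 in Kupffer-like cells, and Cd5l at 10.2 against 31.5. The cells of cluster 19 were kept apart from both macrophage classes.

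**Figure D2:**
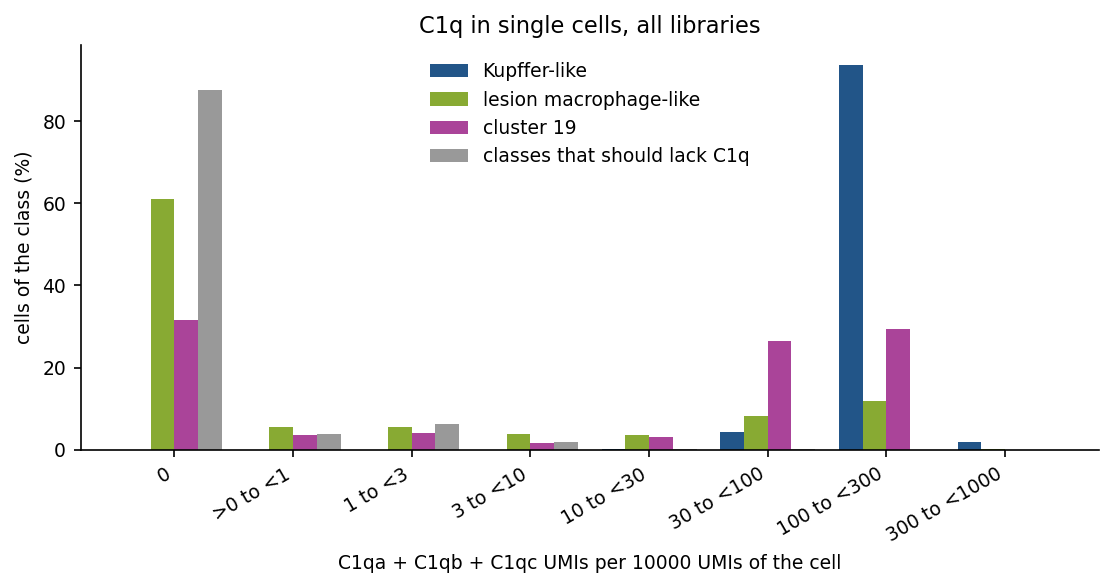
Share of cells (%) in bins of C1q UMIs per 10000 UMIs of the cell, over all libraries, for Kupffer-like cells, lesion macrophage-like cells, cluster 19 and the classes that should lack C1q. Kupffer-like cells fall mostly in 1 bin, with 93.7% between 100 and 300, the lesion macrophage-like class and cluster 19 have both a group at 0 (61.1% and 31.6%) and a group near the Kupffer range, and 87.5% of the remaining classes are at 0.

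Across whole libraries the comparison of Tim3-KD with Ctrl, which asks whether the immune cells of livers differ with the tumour line, went in different directions at the 3 sites. In adjacent liver, Tim3-KD stood at 1483 CPM for C1qa, 949 for C1qb and 872 for C1qc. Ctrl stood at 98.7 CPM for C1qa, 70.0 for C1qb and 57.5 for C1qc. The ratio of Tim3-KD to Ctrl was 15 for C1qa (14.4 to 15.7), 13.6 for C1qb (12.9 to 14.2) and 15.2 for C1qc (14.4 to 16.0). All 3 genes were past 2-fold higher, where 33.9% of 4459 genes were. The share of Kupffer-like cells was 1.72% in Ctrl and 19.4% in Tim3-KD, and the adjacent Tim3-KD library is the one with 542 cells. This library also stood apart in other classes, with 19 mature neutrophil-like cells against 600 in Ctrl, 0 neutrophil precursor-like cells against 136 and 0 progenitor-like cells against 64. Their part in the difference was not tested.

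In micrometastasis the whole-library level was lower in Tim3-KD. For C1qa, Tim3-KD stood at 284 CPM and Ctrl at 433, a ratio of 0.654 (0.643 to 0.666). For C1qb the levels were 206 and 338 (0.608, 0.596 to 0.621) and for C1qc 139 and 219 (0.637, 0.621 to 0.654). None of the 3 genes was past 2-fold, where 18.9% of genes were, and most of those (484 of 504) were lower in Tim3-KD. The trimmed mean of all genes was itself shifted by −0.44 on the log2 scale here, by 0.60 in adjacent liver and by −0.27 in macrometastasis. Relative to these shifts the summed C1q difference was −0.22 in micrometastasis, 3.27 in adjacent liver and 0.45 in macrometastasis.

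In macrometastasis the 3 genes were slightly higher in Tim3-KD over the whole library. For C1qa, Tim3-KD stood at 1653 CPM and Ctrl at 1442, a ratio of 1.15 (1.14 to 1.16). For C1qb the levels were 1193 and 1054 (1.13, 1.12 to 1.15) and for C1qc 786 and 708 (1.11, 1.09 to 1.13). None was past 2-fold, where 12.9% of genes were. The share of Kupffer-like cells was 16.4% in Ctrl and 17.0% in Tim3-KD.

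Within Kupffer-like cells, all ratios stayed within 2-fold. In adjacent liver the ratio of Tim3-KD to Ctrl was 0.873 for C1qa (0.838 to 0.910), 0.791 for C1qb (0.753 to 0.832) and 0.879 for C1qc (0.833 to 0.928). Here 0 of 3 genes were past 2-fold, where 14.1% of 851 genes were. The whole-library difference of 14.6-fold (14.2 to 15) for summed C1q in adjacent liver thus stood beside a ratio of 0.849 (0.826 to 0.873) inside the class. Cluster 22, whose cells hold fewer UMIs than those of cluster 0, made up 9 of 31 Kupffer-like cells in Ctrl and 55 of 105 in Tim3-KD, and in cluster 0 alone the summed level was 17413 in Ctrl and 14519.7 in Tim3-KD.

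In micrometastasis the Kupffer-like ratio was 0.939 for C1qa (0.920 to 0.958), 0.888 for C1qb (0.867 to 0.909) and 0.944 for C1qc (0.918 to 0.972), with 0 of 3 past 2-fold against 3.8% of 1264 genes. The trimmed mean of genes in these cells was shifted by 0.14 on the log2 scale, and the summed C1q difference was −0.12 as measured and −0.26 relative to that shift. In macrometastasis it was 1.27 for C1qa (1.25 to 1.28), 1.24 for C1qb (1.23 to 1.26) and 1.24 for C1qc (1.22 to 1.26), with 0 of 3 past 2-fold against 5.96% of 1744 genes. The 3 genes had ratios under 1 at both day 3 sites and over 1 on day 12. With 1 library per group the spread between mice is unknown, so these differences cannot be set against it.

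**Figure D3:**
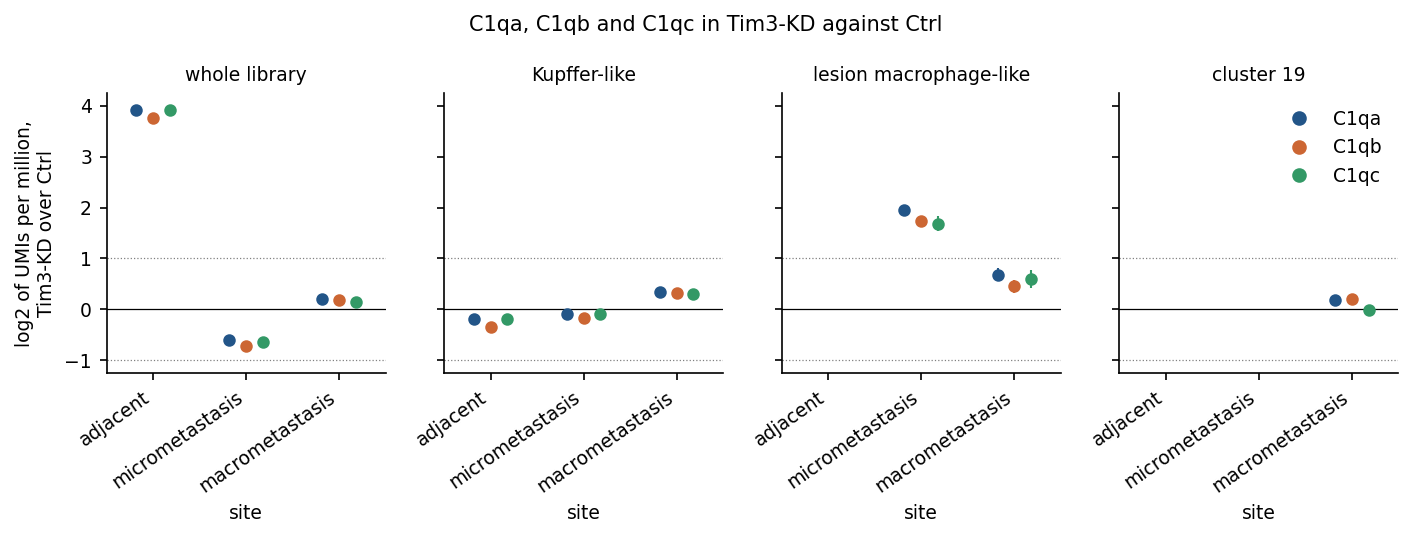
Log2 ratio of CPM in Tim3-KD over Ctrl for C1qa, C1qb and C1qc at each site, in whole libraries and within classes of cells, with 95% counting intervals. Whole libraries of adjacent liver stand at 3.76 to 3.92, whereas the ratios within Kupffer-like cells lie between −0.34 and 0.34 at all 3 sites.

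In lesion macrophage-like cells of micrometastasis, C1q was higher in Tim3-KD. For C1qa, Tim3-KD stood at 2774 CPM and Ctrl at 716, a ratio of 3.87 (3.62 to 4.13). For C1qb the levels were 2285 and 683 (3.34, 3.11 to 3.59) and for C1qc 1183 and 368 (3.21, 2.91 to 3.54). All 3 were past 2-fold higher, where 7.58% of 1122 genes were. These ratios were not recomputed under another clustering. At clustering resolution 2 no cluster met the lesion macrophage markers. With the C1q genes in the clustering, the class held 410 cells of micrometastasis Ctrl and 133 of micrometastasis Tim3-KD. The share of cells with 10 or more C1q UMIs was 17.2% in Ctrl and 48.1% in Tim3-KD, and among these cells alone the summed level was 9085 and 10776 CPM. These cells were picked by their own C1q UMIs, so their level is given as a description. The class held 454 cells in Ctrl and 54 in Tim3-KD, and the 96 cells of cluster 19 in Tim3-KD stood against 7 in Ctrl.

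In macrometastasis the lesion macrophage-like level was 3965 CPM in Ctrl (3781 to 4155, 46 cells) and 5899.8 in Tim3-KD (5722 to 6082, 61 cells), a ratio of 1.49 (1.41 to 1.57). Among cells with 10 or more C1q UMIs it was 13077 and 13083. In cluster 19 of macrometastasis the ratio was 1.14 for C1qa (1.10 to 1.17), 1.15 for C1qb (1.10 to 1.19) and 0.986 for C1qc (0.940 to 1.03).

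Between sites, the Kupffer-like level is set side by side as recovered CPM. The ratio of macrometastasis to micrometastasis for summed C1q was 0.852 with Ctrl tumours (0.843 to 0.861) and 1.16 with Tim3-KD tumours (1.14 to 1.17). The direction thus differed between the tumour lines. The ratio of micrometastasis to adjacent liver, both on day 3, was 1.05 with Ctrl tumours (1.03 to 1.08) and 1.15 with Tim3-KD tumours (1.13 to 1.17). C1qc did not follow the other genes in this comparison, at 0.924 with Ctrl tumours (0.878 to 0.974) and 0.993 with Tim3-KD tumours (0.961 to 1.03), against 1.14 (1.09 to 1.19) and 1.28 (1.24 to 1.32) for C1qb. Sites were scaled apart by the authors, and each ratio compares single libraries.

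The shares of the 3 chains in summed C1q UMIs were close between libraries of Kupffer-like cells. C1qa took 43.7% in adjacent Ctrl and from 44.4% to 45.5% in the other libraries. C1qc took 25.5% in adjacent Ctrl (24.5 to 26.6) and 26.4% in adjacent Tim3-KD (25.8 to 27.0), but 21.6% to 22.9% in the 4 libraries of micrometastasis and macrometastasis. C1qb took 30.8% and 28.7% in adjacent liver and 32.0% to 33.3% elsewhere. The adjacent libraries were thus apart from the rest beyond counting error in C1qc, while the C1qb interval of adjacent Ctrl (29.7 to 31.9) met that of micrometastasis Tim3-KD (31.5 to 32.4). For C1qc the gap was present in cluster 0 and in cluster 22, at 25.2% to 26.9% in adjacent liver and 19.9% to 22.9% elsewhere.

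Lesion macrophage-like cells carried a larger C1qb share than Kupffer-like cells of the same library. C1qb took 38.7% (37.6 to 39.7) against 33.3% (32.8 to 33.7) in micrometastasis Ctrl. In micrometastasis Tim3-KD it took 36.6% (34.8 to 38.4) against 32.0% (31.5 to 32.4). In macrometastasis it took 40.9% (38.6 to 43.3) against 33.2% (32.9 to 33.5) in Ctrl and 37.6% (36.1 to 39.1) against 32.9% (32.7 to 33.1) in Tim3-KD. The intervals did not overlap in any of these 4 libraries. A larger C1qb share was not particular to this class. In the classes that should lack C1q it was 41.2% (37.6 to 44.8) in micrometastasis Tim3-KD and 38.6% (35.6 to 41.6) in macrometastasis Tim3-KD. In the Ctrl libraries of micrometastasis (31.1 to 39.9) and macrometastasis (31.5 to 37.2) their interval held the Kupffer-like share. In cluster 19 the C1qb share was 34.1% in micrometastasis Tim3-KD, 29.2% in macrometastasis Ctrl and 30.4% in macrometastasis Tim3-KD, below the share in lesion macrophage-like cells of each library, although the intervals met in micrometastasis Tim3-KD (33 to 35.2 in cluster 19).

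**Figure D4:**
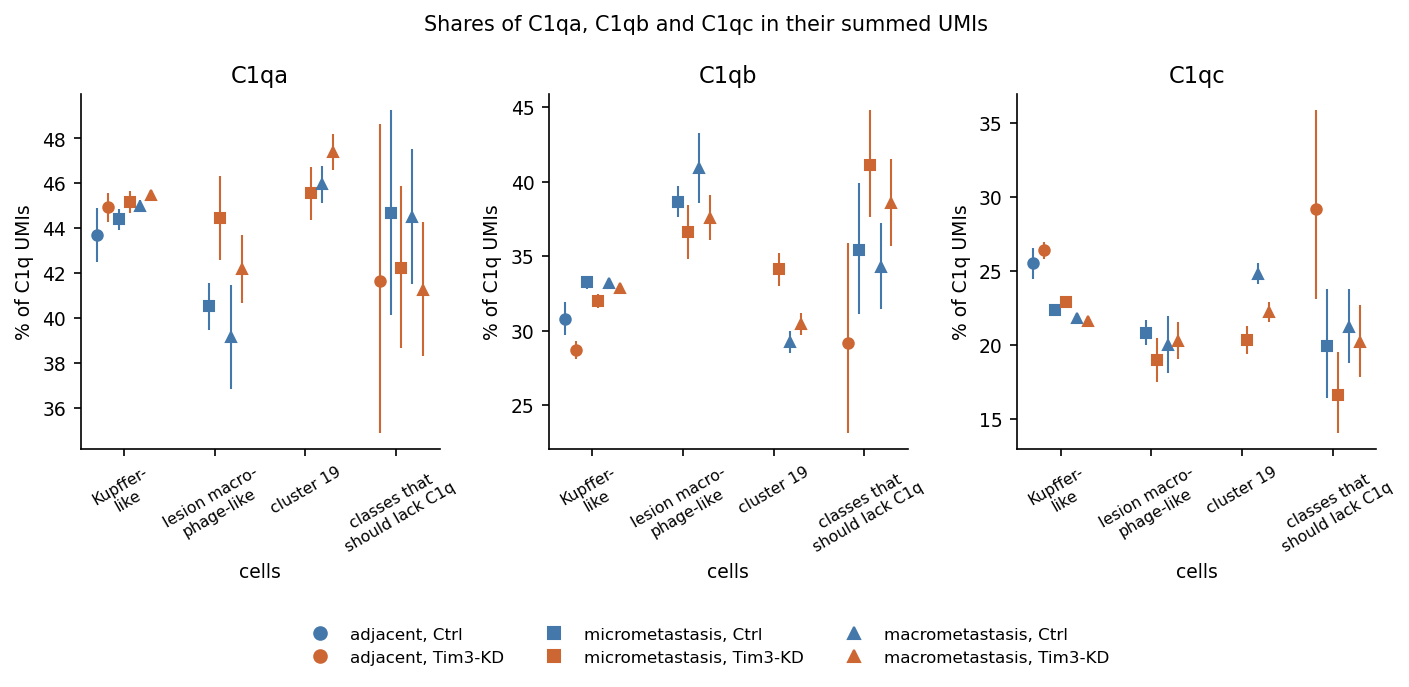
Share (%) of C1qa, C1qb and C1qc in summed C1q UMIs, with 1 point per library and 95% counting intervals, in Kupffer-like cells, lesion macrophage-like cells, cluster 19 and the classes that should lack C1q; points with under 20 cells or under 100 C1q UMIs are not drawn. C1qb is at 28.7% to 33.3% in Kupffer-like cells and 36.6% to 40.9% in lesion macrophage-like cells, and C1qc is highest in the adjacent libraries.

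C1q UMIs were also found in classes of cells that are not known to make it. Mature neutrophil-, neutrophil precursor-, B-, T- and NK or ILC1-like cells were pooled as classes that should lack C1q. Their summed level was 3.61 CPM in adjacent Ctrl (2.69 to 4.75), 50.4 in adjacent Tim3-KD (43.8 to 57.7), 16.2 in micrometastasis Ctrl (14.8 to 17.7), 15.4 in micrometastasis Tim3-KD (14.3 to 16.5), 46.4 in macrometastasis Ctrl (43.7 to 49.3) and 33.3 in macrometastasis Tim3-KD (31.4 to 35.4). The whole libraries stood at 226, 3303, 991, 629, 3204 and 3633 in this order, and the level in these classes was 1.60%, 1.52%, 1.63%, 2.45%, 1.45% and 0.918% of them. The level in cells that should lack C1q was thus high in the libraries that were rich in C1q. In adjacent liver it was 14.0-fold higher in Tim3-KD than in Ctrl (10.2 to 19.3), beside 14.6-fold in the whole library. Among cells under 10 C1q UMIs it was 9.27-fold higher (6.67 to 13). Those cells were picked by their own C1q UMIs, so this ratio is given as a description.

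The share of such cells with a C1q UMI, after thinning to 1500 UMIs, was 0.498% in adjacent Ctrl, 6.25% in adjacent Tim3-KD, 1.83% in micrometastasis Ctrl, 1.27% in micrometastasis Tim3-KD, 5.87% in macrometastasis Ctrl and 5.07% in macrometastasis Tim3-KD. Without thinning the shares were 2.82%, 31.5%, 8.16%, 7.0%, 17.5% and 18.5%, at median depths of 6066, 10096, 5146, 7722, 5064 and 5548 UMIs. The T-, B- and mature neutrophil-like classes had thinned shares of 5.21%, 7.33% and 5.57% in macrometastasis Ctrl and 5.28%, 5.98% and 4.85% in macrometastasis Tim3-KD. Kupffer-like cells were at 100% in every library. Lesion macrophage-like cells were at 20.3% in micrometastasis Ctrl and 59.3% in micrometastasis Tim3-KD, beside backgrounds of 1.83% and 1.27% in the classes that should lack C1q. In macrometastasis they were at 43.5% in Ctrl and 49.2% in Tim3-KD, beside 5.87% and 5.07%.

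**Figure D5:**
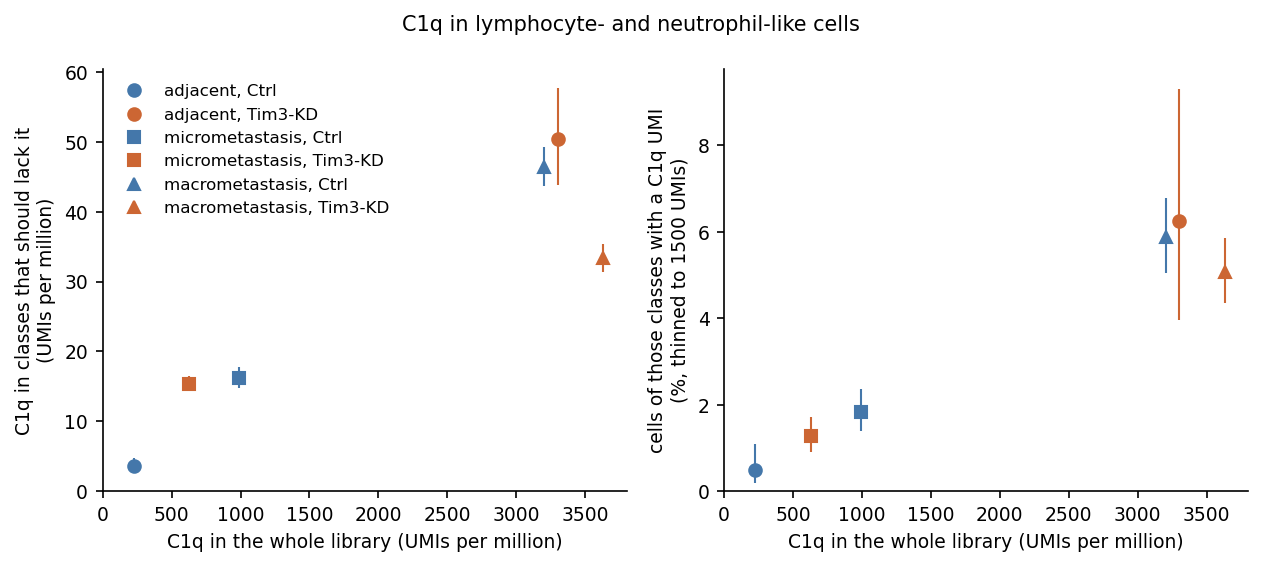
C1q in lymphocyte- and neutrophil-like cells against the summed C1q level of the whole library (CPM), with 1 point per library and 95% counting intervals: the left panel gives the level in those cells and the right panel the share of them with a C1q UMI after thinning to 1500 UMIs. Both are lowest in adjacent Ctrl (3.61 and 0.498%) and are higher in the 3 libraries above 3000 than in the 3 below 1000.

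Few of these cells held many C1q UMIs. Of 14226 cells, 12447 (87.5%) held none, 1650 held 1 or 2, 85 held 3 to 9 and 44 held 10 or more. The 44 cells were 0.309% of cells and held 39.8% of the 3635 C1q UMIs. A Kupffer marker UMI was present in 40 of them (90.9%), against 20.0% of the cells with 1 or 2 C1q UMIs and 10.1% of those with none. Their median depth was 10178 UMIs against 5635 in cells with none, and 7 of 44 (15.9%) had a doublet score over 0.15, against 3.45% of cells with none. In micrometastasis Tim3-KD, 10 such cells held 62.7% of the C1q UMIs of these classes. Without cells of 10 or more C1q UMIs, the level in these classes was 1.60%, 1.01%, 0.974%, 0.917%, 0.906% and 0.663% of the library level, in the order above. The ratio of Tim3-KD to Ctrl in micrometastasis then went from 0.952 (0.847 to 1.07) to 0.598 (0.505 to 0.708). The cut was made on the C1q UMIs themselves, so these values are given as a description.

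UMIs of other Kupffer genes were found in these cells beside C1q, in proportions that met those of Kupffer-like cells for some genes and libraries and not for others. Clec4f, a Kupffer cell lectin, had 35.3 UMIs per 100 C1q UMIs in adjacent Ctrl (19.4 to 61.4), 52.6 in adjacent Tim3-KD (41.4 to 66.6), 25.6 in micrometastasis Ctrl (20.8 to 31.3), 16.0 in micrometastasis Tim3-KD (13 to 19.4), 36.8 in macrometastasis Ctrl (32.7 to 41.3) and 38.1 in macrometastasis Tim3-KD (33.9 to 42.7). In Kupffer-like cells the values were 39.0, 47.1, 29.9, 27.9, 39.1 and 37.2. The interval held the Kupffer-like value in 5 of the 6 libraries, and micrometastasis Tim3-KD was the exception. Cd5l, a scavenger protein of Kupffer cells, gave 15 (12.2 to 18.3) against 26.0 in that library, and 28.5 (25.1 to 32.4) against 31.5 in macrometastasis Ctrl. Vsig4 gave 5.36 (3.8 to 7.37) against 13.2 and Fcna 5.36 (3.8 to 7.37) against 11.6 in micrometastasis Tim3-KD. Marco, a scavenger receptor, gave 6.17 (4.47 to 8.31) against 12.7 in that library and 3.72 (2.64 to 5.10) against 1.30 in macrometastasis Ctrl. In cells under 10 C1q UMIs of micrometastasis Tim3-KD the values were 20.9 (15.4 to 27.8) for Clec4f and 21.2 (15.7 to 28.2) for Cd5l. In such cells of adjacent Tim3-KD, Clec4f was at 64.5 (48.8 to 84.8) against 47.1 in Kupffer-like cells and Cd5l at 43.5 (31.6 to 59.3) against 29.0. In those of macrometastasis Ctrl, Clec4f was at 45.6 (39.6 to 52.3) against 39.1. Cells under 10 C1q UMIs were picked by their own C1q UMIs, which are the denominator of these ratios. Kupffer-like cells were not cut in this way, so the values are given as a description. C1qb took 41.2% of C1q UMIs in the classes that should lack it in micrometastasis Tim3-KD (37.6 to 44.8), against 32.0% in Kupffer-like cells of this library, and C1qc took 16.6% (14.0 to 19.5) against 22.9%. The part of free RNA and of doublets in these UMIs was not tested.

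All C1q UMIs outside the 2 macrophage classes were 3.29% of the total in adjacent Ctrl, 1.42% in adjacent Tim3-KD, 1.48% in micrometastasis Ctrl, 16.1% in micrometastasis Tim3-KD, 11.4% in macrometastasis Ctrl and 7.54% in macrometastasis Tim3-KD. These shares depended on how the classes were drawn. At clustering resolution 2, where no cluster met the lesion macrophage markers, micrometastasis Ctrl was at 17.1%. With the C1q genes in the clustering, the last 3 libraries were at 2.24%, 5.88% and 2.54%, and with Kupffer cells taken one by one from their markers at 4.68%, 5.25% and 3.83%. In the clustering used here, most of the share in the last 3 libraries lay in cluster 19, which held 14.0%, 10.3% and 6.66% of the total. With cluster 19 counted as macrophages, an assignment made after seeing the data, the shares outside were 1.37%, 1.42%, 1.23%, 2.11%, 1.09% and 0.878%. Among the remaining named classes with at least 20 cells in a library, endothelial-like cells reached the highest levels, at 448 CPM in adjacent Tim3-KD (362 to 548, 36 cells) and 400.4 in micrometastasis Tim3-KD (305 to 516, 38 cells), but 55.9 in macrometastasis Ctrl (346 cells). The Kupffer genes Vsig4 and Fcna reached at most 47.7 and 38.1 CPM in endothelial-like cells of a library. The part of free RNA and of doublets in the endothelial-like C1q level was not tested. Monocyte-like cells stayed between 1.20 and 35.6 CPM of C1q.

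Levels of the 3 genes rose and fell together across classes, although their shares of summed C1q differed between classes as given above. Over 52 combinations of class and library with at least 50 cells, Pearson's r of log2(CPM + 1) was 0.990 for C1qa and C1qb, 0.988 for C1qa and C1qc and 0.985 for C1qb and C1qc. Of 1639 other genes, those most like summed C1q were Adamdec1 (0.92), Cxcl13 (0.92), Igf1 (0.91), Axl (0.91), Siglec1 (0.91), Clec4f (0.90), Lilra5 (0.90), Nr1h3 (0.89), Folr2 (0.89) and Fcna (0.87). The points share libraries and depth, and most of the likeness came from the macrophage classes. When these were left out (44 points), 2 of the 10 genes stayed among the 10 most like C1q, namely Clec4f, at rank 1 with an r of 0.90, and Fcna, at rank 6 with 0.67.

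Of 46 other complement genes listed, 22 were in at least 1 matrix and 15 in all 3. By median level over libraries, 8 of the 22 were highest in Kupffer-like cells, 6 in endothelial-like cells and 4 in lesion macrophage-like cells. The 8 include Vsig4 and Fcna, which are among the markers that named the Kupffer-like class, so their place was set by the naming. Of all 5301 genes, 13.4% were highest in Kupffer-like, 38.5% in endothelial-like and 2.06% in lesion macrophage-like cells. In Kupffer-like cells C2, the protease that C1s cleaves, had a median of 101 CPM against at most 20.2 in any other class. C4b, here a gene for complement C4, had 324 against at most 14.1. C6, a subunit of the membrane attack complex, was at 699.9, properdin (Cfp), which stabilises the alternative pathway convertase, at 1314, and Fcna, a lectin pathway ficolin, at 2041. C3 was in the macrometastasis matrix alone, where it was higher in lesion macrophage-like (287) than in Kupffer-like cells (48.2), and factor B (Cfb) was at 225 in lesion macrophage-like and 117 in Kupffer-like cells. The decay accelerator Cd55 was at 912 in endothelial-like and 45.4 in Kupffer-like cells. C4a and C4b are near-identical copies, so their split is uncertain.

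In Kupffer-like cells most counted genes of the list were within 2-fold between the tumour lines, as were most genes. In adjacent liver 0 genes were past 2-fold higher in Tim3-KD and 2 were past 2-fold lower, C4b (465 CPM in Ctrl, 228 in Tim3-KD) and Cfb (202 and 57.2). Another 10 were within 2-fold and 8 had under 100 UMIs, so 2 of 12 counted genes were past 2-fold beside 14.1% of all genes. In micrometastasis 1 was higher, Cfb (89.8 in Ctrl, 189 in Tim3-KD), 12 were within 2-fold and 3 had under 100 UMIs, beside 3.8% of all genes past 2-fold. In macrometastasis 1 was higher, Cd55 (23.0 and 52.7), 14 were within 2-fold and 6 had under 100 UMIs, beside 5.96% of all genes past 2-fold. Over whole libraries, 14 of 20 were past 2-fold higher in adjacent Tim3-KD and 3 lower, while 2 were within 2-fold and 1 had under 100 UMIs. Of all counted genes, 33.9% were higher and 9.26% lower. In micrometastasis 5 of 16 were lower beside 18.1% of all genes, and in macrometastasis 3 of 21 beside 10.6%, a share near the background. Vsig4, a complement receptor of Kupffer cells that binds C3 fragments, had Kupffer-like ratios of 1.09 (1.02 to 1.18), 0.996 (0.959 to 1.03) and 1.31 (1.29 to 1.34) at the 3 sites, beside 0.849, 0.923 and 1.25 for summed C1q.

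Of 8 macrophage transcription factors listed, 7 were in all 3 matrices and 5 of these were highest in Kupffer-like cells, beside 13.4% of all genes. All 7 were within 2-fold between Tim3-KD and Ctrl in Kupffer-like cells at each site. Nr1h3, which encodes the nuclear receptor LXR alpha, had ratios of 0.707 (0.580 to 0.866), 1.11 (1.01 to 1.22) and 1.26 (1.20 to 1.32) at the 3 sites.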

How the data were processed

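Droplet 3′ UMI libraries (10x Genomics) of CD45+ liver cells were measured, 1 library for each of the 6 groups. Per the submitters' processing notes, reads were trimmed with Trim Galore 0.4.3 and mapped with STAR 2.7.7a to GRCm38, and per the study's methods UMIs over exons and introns were counted and predicted doublets (scrublet score of 0.15) were removed before deposit. The authors deposited, for each site, 1 matrix of normalised and scaled values of variable genes, which are scores and not counts. The fixed design had assumed counts. UMIs were therefore recovered from the scores by undoing the scaling and the normalisation to 10000 per cell. Of the recovered values, 99.9997%, 99.9999% and 99.997% lay within 0.05 of a whole number in adjacent, micrometastasis and macrometastasis, and from 0.144% to 0.160% of values were capped at 10 standard deviations, with 0 cells at the cap for any C1q gene. The recovery was tested on simulated data.

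Cells were pooled over 1642 shared genes and clustered without the C1q genes (30 components, 15 neighbours, Leiden resolution 1, leidenalg 0.10.2, scikit-learn 1.9.0, Python 3.11.15), giving 27 clusters, of which 23 were named from markers. No further doublets were removed: the share of cells with a doublet score over 0.15, computed here from the recovered UMIs against simulated doublets, was 2.40% to 11.8% per library. Levels are summed UMIs per 1000000 UMIs of the cells (CPM), with exact Poisson intervals, and shares have exact binomial intervals (Clopper-Pearson), all at 95% (scipy 1.17.1). UMIs of 1 cell are not independent, so intervals cover counting error only. Ratios of 2 libraries use the exact conditional interval. A gene counted as past 2-fold needed 100 UMIs over both libraries, with 0.5 UMI added to each sum. With 1 library per group no test was made. For shares of cells with a UMI, cells were thinned to 1500 UMIs, which every cell reached.

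The genes named are the 3 C1q genes, the genes of the complement and transcription factor lists, the 10 genes most like summed C1q, the Kupffer genes Clec4f and Cd5l, and class markers. Apoe, fixed as a comparison gene in the rule, was not in all matrices and was not used. The values of 1 listed transcription factor are not reported here. Pf4, Thbs1, Ctsl, Cxcl1 and Alb were chosen after their values were seen. The members and lists were chosen with earlier results of these data known. Alternatives changed the averaging, the doublet and depth filters, the scaling, the clustering, the thinning and the gene minimum. Each cell was assigned to its library by the tag on its barcode, and 0 value columns were left without a sample. Sequences and promoter windows came from RefSeq, and gene positions from the GENCODE annotation of GRCm38.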

Additional observations from a re-analysis of the deposited data

Results flagged for a closer look

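The difference between Tim3-KD and Ctrl in summed C1q had opposite directions at different sites, in whole libraries and in Kupffer-like cells. Over whole libraries the log2 ratio of Tim3-KD to Ctrl was 3.87 in adjacent liver, −0.66 in micrometastasis and 0.18 in macrometastasis. In Kupffer-like cells it was −0.24 in adjacent liver, −0.12 in micrometastasis and 0.32 in macrometastasis. The difference between sites was not tested, since each group is 1 library. The share of Kupffer-like cells was 1.72% in Ctrl and 19.4% in Tim3-KD of adjacent liver, 5.37% and 4.98% in micrometastasis, and 16.4% and 17.0% in macrometastasis. Its part in these ratios was not tested.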

How the results depend on the processing

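No paired analysis was possible because each group holds 1 library and the labels give no replicate numbers. A fit of tumour line over the 3 sites with site as a block was not run, since the comparisons were set within each site. Of 130 values recomputed under an alternative, 67 moved by less than counting error (1.5 times for counts of genes) and 63 moved further. The 67 include shares of Kupffer-like cells that were at 100% with and without thinning. Among the log2 ratios, the only signed values, none changed sign under the alternatives run. The cause of these moves was not tested. For whole libraries, the log2 ratio of Tim3-KD to Ctrl as a mean over cells was 3.27, −0.10 and 0.35 in adjacent liver, micrometastasis and macrometastasis. Relative to the trimmed mean of genes it was 3.27, −0.22 and 0.45. Without cells of doublet score over 0.15 it was 4.04 in adjacent liver and 0.16 in macrometastasis, and without cells under 3000 UMIs −0.68 in micrometastasis. In Kupffer-like cells it was −0.33 in adjacent liver and −0.26 in micrometastasis relative to the trimmed mean, and −0.48 in adjacent liver and 0.38 in macrometastasis when Kupffer cells were taken one by one from their markers.

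The share of C1q UMIs outside the macrophage classes depended on how the clusters were drawn. In the order adjacent Ctrl, adjacent Tim3-KD, micrometastasis Ctrl, micrometastasis Tim3-KD, macrometastasis Ctrl and macrometastasis Tim3-KD, it was 4.25%, 1.67%, 17.1%, 21.9%, 12.8% and 9.34% at resolution 2, where no cluster met the lesion macrophage markers and the values are thus shares outside Kupffer-like cells alone, and 1.37%, 1.17%, 1.33%, 2.24%, 5.88% and 2.54% with the C1q genes in the clustering. With Kupffer cells taken one by one it was 0.748%, 0.747%, 4.68%, 5.25% and 3.83% in the last 5 libraries. Chosen after seeing the data, cluster 19 as macrophages gave 1.37%, 1.23%, 2.11%, 1.09% and 0.878% in all but adjacent Tim3-KD, and leaving out outside cells of 10 or more C1q UMIs gave 1.05%, 0.808%, 0.822%, 1.01%, 0.751% and 0.504%. Without cells of doublet score over 0.15 it was 1.13% and 15.5% in micrometastasis Ctrl and Tim3-KD and 6.65% in macrometastasis Tim3-KD.

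The share of cells with a C1q UMI in classes that should lack it was 2.82%, 31.5%, 8.16%, 7.0%, 17.5% and 18.5% without thinning and 1.20%, 11.5%, 3.62%, 2.57%, 9.87% and 9.13% thinned to 3000 UMIs. In lesion macrophage-like cells of micrometastasis Ctrl it was 32.6% without thinning. The number of genes past 2-fold was 322 in whole micrometastasis libraries relative to the trimmed mean (504 as reported). With a minimum of 20 UMIs it was 568, 144 and 208 in Kupffer-like cells of the 3 sites (120, 48 and 104 as reported). Of the 10 genes most like C1q, 6 stayed with 10 added to the CPM and 2 without the macrophage classes.

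Depth limits the low values. In adjacent Ctrl, 51 C1q UMIs lay in the classes that should lack it, and that library held 31 Kupffer-like cells.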

Other observations

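Marco, a scavenger receptor of macrophages, differed between libraries relative to C1q in Kupffer-like cells more than Clec4f did. Marco had 1.18 UMIs per 100 C1q UMIs in adjacent Ctrl, 0.678 in adjacent Tim3-KD, 4.56 in micrometastasis Ctrl, 12.7 in micrometastasis Tim3-KD, 1.30 in macrometastasis Ctrl and 2.38 in macrometastasis Tim3-KD. In cells under 10 C1q UMIs of the classes that should lack C1q, the ratio was highest in the same library, at 14.0 (9.77 to 19.7) in micrometastasis Tim3-KD, against 6.69 (3.97 to 10.6) in micrometastasis Ctrl, 3.77 (2.42 to 5.62) in macrometastasis Ctrl and 2.32 (1.37 to 3.70) in macrometastasis Tim3-KD. Those cells were picked by their own C1q UMIs, the denominator of the ratio. Over all cells of these classes it was 6.17 (4.47 to 8.31) in micrometastasis Tim3-KD and 5.24 (3.36 to 7.83) in micrometastasis Ctrl. With 1 library per group none of these differences was tested.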
